A study of Mus musculus with 61 samples.

Results

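Liver RNA of the inbred mouse strains NZO and PWK was compared gene by gene. NZO stands for New Zealand Obese, a laboratory strain with inherited, polygenic obesity and diabetes. PWK is a wild-derived strain of the subspecies Mus musculus musculus, and both strains are founders of the Diversity Outbred stock. Members were taken by strain name: all 8 libraries labelled NZO and all 8 labelled PWK, 16 of the 60 libraries with a count column, out of 61 labelled samples. All mice, of both strains, had been fed a high-fat, high-sugar diet that the labels give as 45% fat, so no library shows either strain on another diet. No allele or agent beyond strain and diet is given, and age, sex and hour of collection are not labelled. Poly(A) RNA of whole frozen liver was sequenced. The labels do not say that each library came from a separate mouse, so the p-values measure only how far these libraries scatter, and part of that scatter may be technical. NZO 8 stood apart from the other NZO libraries. List counts that changed without it are given both ways, and so is a gene whose call changed or whose fold moved by over 1.5 times.

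The liver takes up fatty acids from blood, makes others from sugar, burns them in mitochondria and peroxisomes, and stores the rest as triglyceride droplets. PPARα drives the genes of fatty acid burning, SREBP1c those of fatty acid synthesis, and PPARγ, scarce in lean liver, those of droplet storage in fatty liver. Liver also secretes plasma proteins and bile, clears foreign compounds with P450 and conjugation enzymes, and houses resident macrophages, the Kupffer cells. In mice many of these enzymes, and the secreted major urinary proteins, differ between the sexes through growth hormone.

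Levels below are CPM, read counts relative to the TMM-scaled size of the library, and differences are log2 fold changes of NZO against PWK with the standard error (SE) of the fit. A gene is called when its Benjamini-Hochberg adjusted p in edgeR's quasi-likelihood test was under 0.05. Levels are compared between strains within a gene, not between genes, since CPM is not per length. Depth was 22.4 to 69.2 M reads in NZO and 25.1 to 36.6 M in PWK. An 18S ribosomal RNA row took 6.05 to 16.0% of the NZO reads and 1.59 to 7.95% of the PWK reads. Leaving that row out together with the mitochondrial genes kept the 4 counts of called genes and the 86 list counts within 1.5 times, and all 166 named genes kept their direction and call. Xist, the RNA of the silenced X chromosome, split both strains. It stood at 1319 to 1421 CPM in NZO 1 to 4 and at 0.193 to 1.60 CPM in NZO 5 to 8. In PWK 1, 2, 6 and 7 it was at 852 to 1292 CPM, and in PWK 3, 4, 5 and 9 at 1.83 to 8.90 CPM. The running numbers in the sample titles fall into a low range, with NZO 5 to 8 and PWK 1 to 5, and a high range, with NZO 1 to 4 and PWK 6, 7 and 9. Within NZO, high Xist and the high title numbers cannot be told apart.

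The first principal component of the 16 libraries, with 53.5% of the variance, separated NZO (scores of -78.9 to -50.5) from PWK (59.0 to 84.6). The second, with 13.3%, separated the high-Xist from the low-Xist libraries within each strain. The third, with 10.1%, set NZO 8 at 107 against -29.0 to 14.4 for the other 15 libraries.

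**Figure D1:**
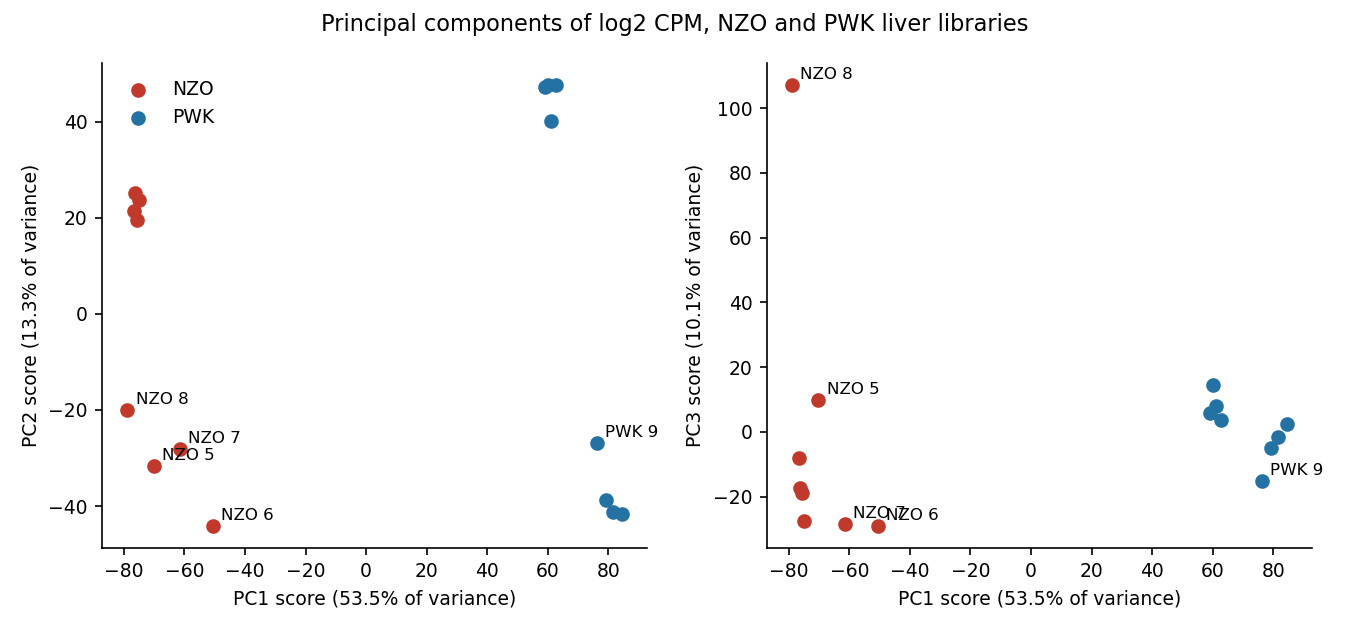
Scores of the 8 NZO and 8 PWK libraries on principal components 1 and 2 (left) and 1 and 3 (right), from log2 CPM, with the share of variance on each axis and 5 libraries labelled. NZO and PWK lie apart on component 1, and NZO 8 lies alone at 107 on component 3.

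Marker genes checked the tissue. The 19 listed hepatocyte genes summed to 71287 to 131031 CPM in NZO and 83484 to 148584 CPM in PWK. Adiponectin, leptin, Plin1 and acinar pancreas enzymes such as Prss2 and Cpa1 were not among the genes analysed here. The 3 other adipose markers summed to 133 to 1964 CPM in NZO (median 1560) and 203 to 1551 CPM in PWK (median 740). Adipsin (Cfd), among them, averaged only 1.04 CPM in NZO and 0.0977 CPM in PWK. Elastase 1 (Cela1) averaged 2.51 CPM in NZO and 14.5 CPM in PWK, and the gut fatty acid binding protein Fabp2 113 and 56.6 CPM. The listed striated muscle genes summed to 2.995 to 48.95 CPM in NZO and 2.41 to 302.4 CPM in PWK. The neutrophil list summed to 2487 CPM in NZO 8, to 2.49 to 14.3 CPM in the other 7 NZO libraries and to 1.17 to 4.72 CPM in PWK. For whole tissue, fewer cells of a type and less of an RNA per cell cannot be told apart in any of the results that follow.

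Of 16165 genes tested, 8104 (50.1%) were called. In NZO 4392 genes (27.2%) were higher and 3712 (23.0%) lower. At a difference of at least 2-fold, 1985 genes (12.3%) were higher and 1187 (7.34%) lower in NZO. Without NZO 8, 3887 of 16128 genes (24.1%) were higher and 3933 (24.4%) lower, and 7301 calls were shared with the same direction. The balance of higher to lower calls thus turned on that library: 635 of the higher calls and 168 of the lower calls were lost without it. For 2831 genes (17.5%) the ranges of the 2 strains did not overlap. The median log2 fold change of all genes was 0.02, and -0.01 without NZO 8. Within the low range of title numbers, 2264 genes were higher and 1996 lower, and within the high range, the counts of genes higher in NZO and genes lower in NZO were 3486 and 3303, with fewer libraries in each fit. With Xist as a covariate they were 4639 and 3903.

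The place of both strains among the 8 founder strains differed by direction. Of the 1985 genes at least 2-fold higher in NZO, NZO had the highest mean of the 8 strains and PWK not the lowest for 738 (37.2%). PWK had the lowest and NZO not the highest for 517 (26.0%), and the strains held opposite ends for 270 (13.6%). Of the 1187 genes at least 2-fold lower in NZO, NZO alone was at the end for 234 (19.7%), PWK alone for 480 (40.4%), and both for 148 (12.5%).

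**Figure D2:**
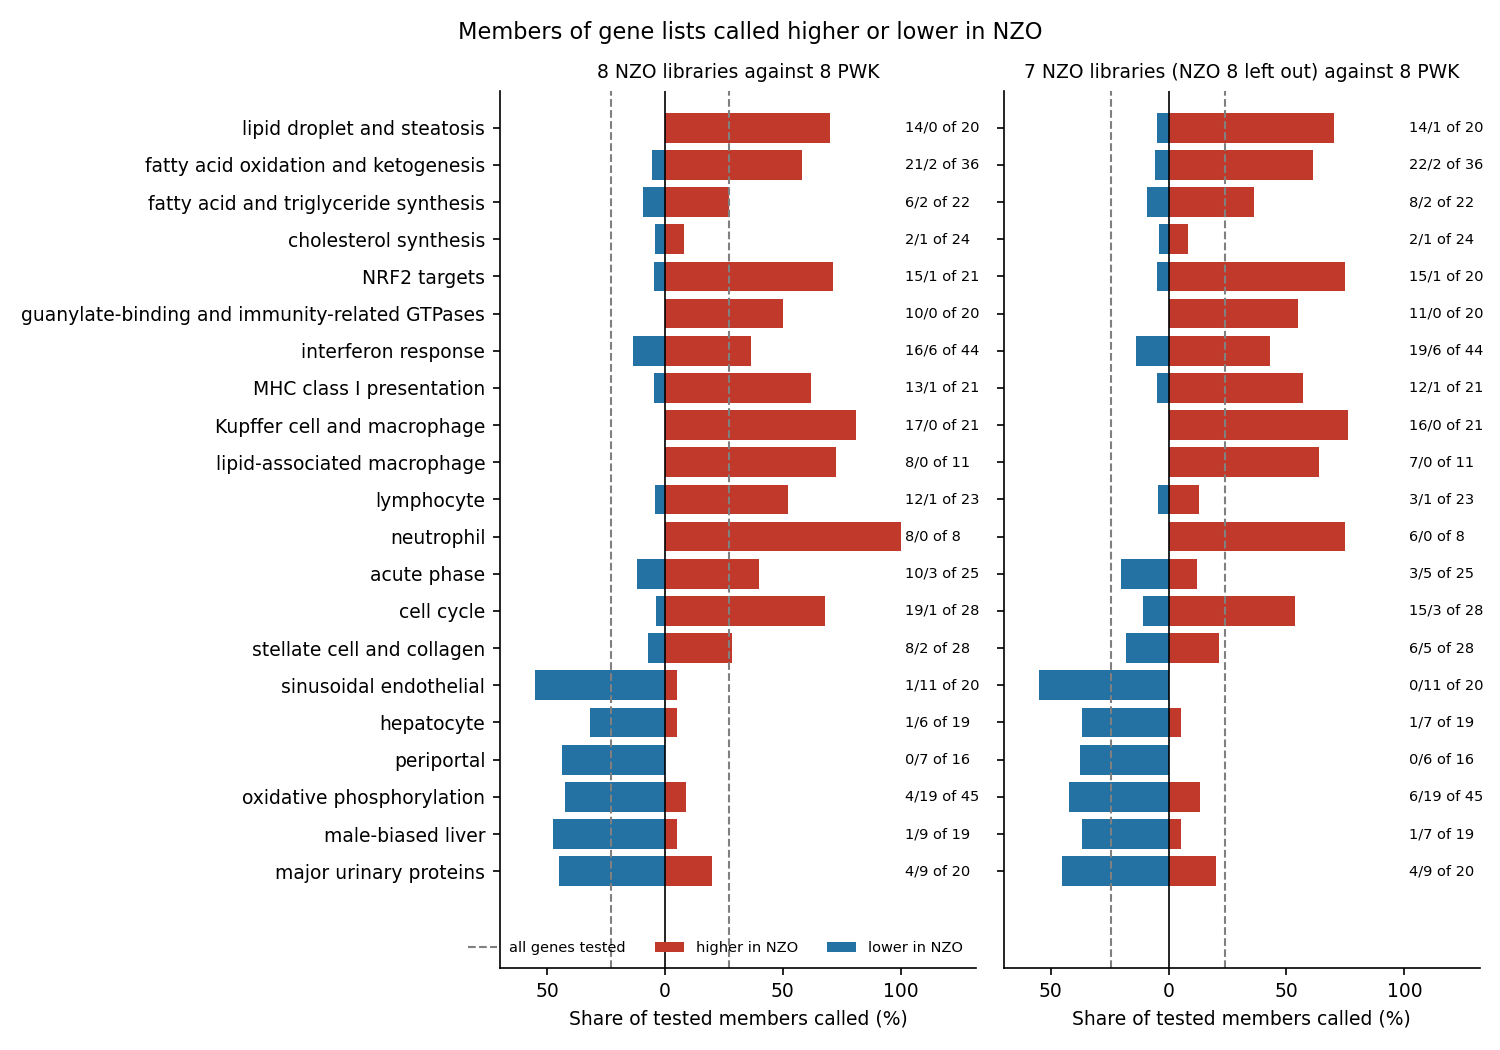
Share of the tested members of each gene list called higher (right) or lower (left) in NZO, with all 8 NZO libraries and with the 7 other than NZO 8. Dashed lines mark the shares over all genes, 27.2% higher and 23.0% lower with 8 NZO libraries, and 24.1% and 24.4% with 7. The higher shares of the lymphocyte, acute phase and neutrophil lists shrink when NZO 8 is left out.

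Lipid droplet genes were higher in NZO. Of 20 tested members, 14 were higher and none lower, against 27.2% and 23.0% of all genes, and their median log2 fold change was 0.86. Without NZO 8 the counts were 14 and 1. Pparg, the nuclear receptor of fat storage (chr6:115360951-115490399, GRCm38), ranged from 6.48 to 14.6 CPM in NZO, with a median of 13.5. In PWK it ranged from 0 to 0.537 CPM with a median of 0.181. Every NZO library was above every PWK library, the lowest being NZO 6, and the log2 fold change was 5.68 (SE 0.48, adjusted p = 1.23e-14). NZO had the highest and PWK the lowest mean of the 8 strains, the other 6 lying between 0.492 and 11.8 CPM.

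Mogat1, which joins a fatty acid to monoacylglycerol on the way to triglyceride, ranged from 1.45 to 23.5 CPM in NZO (median 15.6). Its PWK range was 0 to 0.238 CPM (median 0.101). The groups did not overlap, NZO 8 being the lowest NZO library, and the log2 fold change was 6.93 (SE 0.76, adjusted p = 1.54e-11). Vldlr, a receptor for triglyceride-rich particles, stood at 4.84 to 48.9 CPM in NZO (median 34.3) and at 0.0996 to 1.79 CPM in PWK (median 0.528). The high-Xist NZO libraries held 42.3 to 48.9 CPM, NZO 5 to 7 held 21.9 to 26.3 CPM and NZO 8 4.84 CPM. The log2 fold change was 5.60 (SE 0.72, adjusted p = 2.83e-08), with no overlap. Fitm1, an endoplasmic reticulum protein needed for droplet formation, reached 14.1 CPM at the NZO median (range 2.97 to 22.3) and 0.544 CPM at the PWK median (range 0 to 0.987). The groups did not overlap, and the log2 fold change was 4.90 (SE 0.66, adjusted p = 4.19e-08).

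Cidec, a droplet fusion protein, averaged 8.48 ± 7.75 CPM (SD, n = 8) in NZO and 0.52 ± 0.192 CPM in PWK, a log2 fold change of 4.01 (adjusted p = 2.37e-05). It ran from 0.632 CPM in NZO 8 to 23 CPM in NZO 7, and only NZO 8 fell into the PWK range of 0.272 to 0.778 CPM. Cd36, the fatty acid transporter, was at 287 ± 65 CPM in NZO and 65.2 ± 40.9 CPM in PWK, with no overlap (log2 fold change 2.14, adjusted p = 2.52e-04). In PWK, Cd36 was at 77.5 to 128.6 CPM in the high-Xist libraries and at 24.7 to 32.9 CPM in the others. Among the coat proteins, Plin2 was higher by 1.28 and Plin4 by 1.65 on the log2 scale (adjusted p = 1.89e-05 and 0.00429). G0s2, an inhibitor of the lipase ATGL, was higher by 1.64 (adjusted p = 0.00175), although NZO 8, at 6.45 CPM, was below every PWK library. Hilpda, Fitm2, Plin3, and the lipases Lipe and Mgll were higher by 0.57 to 0.95. The ATGL gene Pnpla2 (log2 fold change -0.06), its coactivator Abhd5 (-0.05), Plin5 (0.77), Fabp4 (-0.36), Cideb (0.10) and Hsd17b13 (0.23) were not called. Fabp4 was the member called lower without NZO 8 (-0.47, adjusted p = 0.0391).

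**Figure D3:**
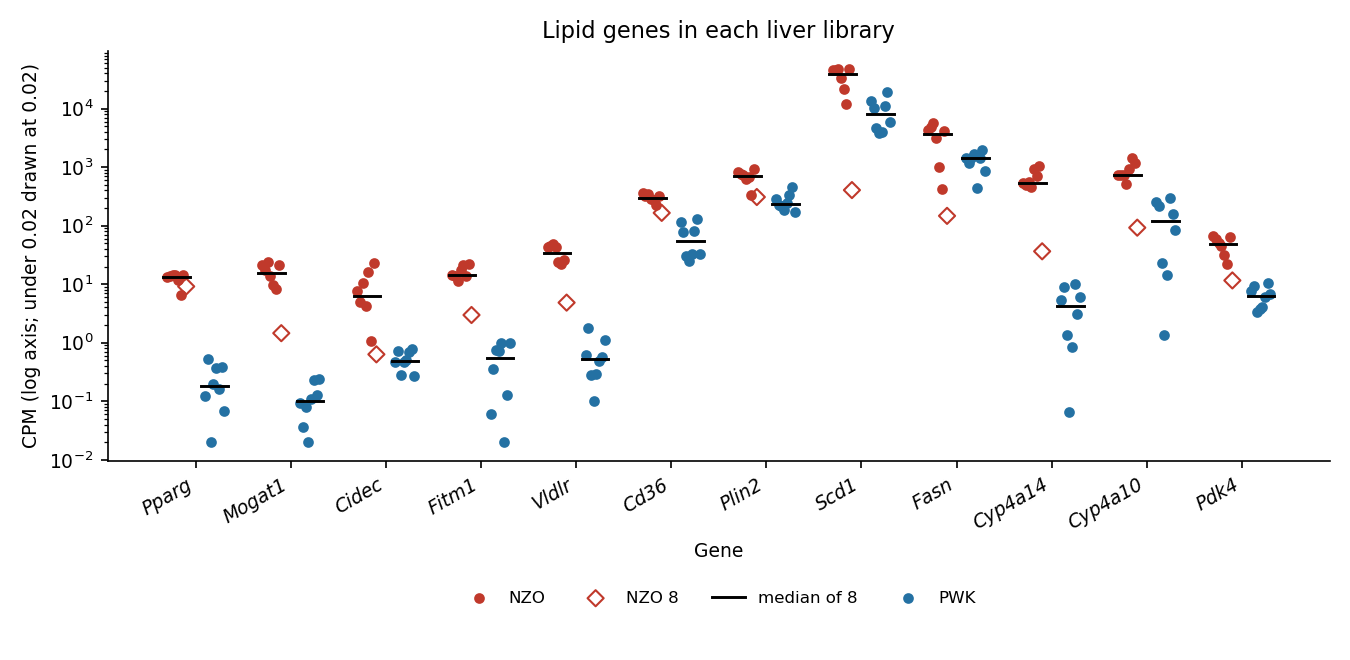
CPM of 12 genes of lipid storage, synthesis and burning in each library (log axis), with NZO 8 as an open diamond, the median of each strain's 8 libraries as a line, and values under 0.02 drawn at 0.02. Pparg, Mogat1 and Fitm1 show no overlap between the strains, and NZO 8 is the lowest NZO library for Scd1 and Fasn.

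Part of the fatty acid synthesis genes were higher in NZO, at a share close to that of all genes. Of 22 tested members 6 were higher, against 27.2% of all genes, with a median of 0.39. With 2 members lower, the lower share was below the 23.0% of all genes. Without NZO 8 the counts were 8 and 2. Scd1, which makes monounsaturated fatty acids, ranged from 404 to 46608 CPM in NZO (median 39101) and from 3771 to 19219 CPM in PWK (median 8161). NZO 8 was the lowest of the 16 libraries and NZO 6, at 11958 CPM, lay within the PWK range. The log2 fold change was 1.79 (SE 0.44, adjusted p = 7.69e-04), and 1.96 without NZO 8. Fatty acid synthase (Fasn) ranged from 147 to 5764 CPM in NZO (median 3625) and from 436 to 1994 CPM in PWK (median 1411). NZO 6, at 426 CPM, and NZO 8 were below every PWK library, NZO 5 was within the PWK range, and the other 5 NZO libraries were above it. Its log2 fold change was 1.19 (SE 0.43, adjusted p = 0.0191), with an adjusted p of 0.062 when NZO 3 was left out. With the NZO and PWK libraries alone in the fit, the adjusted p of Fasn was 0.0856.

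Acaca, which makes malonyl-CoA, was higher by 1.18 (adjusted p = 0.00194), Elovl5 by 1.00 and the desaturase Fads2 by 0.92. The elongase Elovl6 was higher by 1.25 (adjusted p = 0.0333), a call that was lost on leaving out any of NZO 1, 2, 3 and 7 or PWK 2, 3, 4, 5 and 9, with adjusted p up to 0.0933. The call was also lost with the NZO and PWK libraries alone in the fit (adjusted p = 0.0945). Lpin1, a phosphatidate phosphatase, went the other way: its NZO median was 120.0 CPM (range 81.4 to 242) and its PWK median 346 CPM (range 165 to 849). The ranges overlapped, PWK 9 was the highest library, and the log2 fold change was -1.47 (SE 0.38, adjusted p = 0.00144). Mlxipl, which encodes the sugar-sensing factor ChREBP, fell by 0.75 (adjusted p = 9.91e-04). Srebf1 (0.05), Dgat1 (-0.18), Dgat2 (-0.20), Acly (0.88) and Gpam (0.74) were not called. Without NZO 8, Acly and Gpam were past the threshold (adjusted p = 0.0223 and 0.0191).

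Cholesterol synthesis showed 2 higher and 1 lower gene among 24 tested, a smaller share than among all genes, and a median of 0.00. No gene was higher without NZO 3, and 1 without any of NZO 1, 2, 4 and 7 or PWK 1, 2, 3, 4, 5 and 9. The lower count was 3 without PWK 3 and 2 without NZO 2. Ebp was lower at -0.30, a call lost with the NZO and PWK libraries alone in the fit (adjusted p = 0.0527). Srebf2, which encodes the sterol-sensing factor SREBP2, was not called (-0.21).

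Fatty acid burning was higher in NZO across a wide set of genes. Of 36 tested, 21 were higher and 2 lower, against 27.2% and 23.0% of all genes, with a median of 0.52. Without NZO 8 the counts were 22 and 2. Cyp4a14, a PPARα-driven fatty acid hydroxylase, ranged from 36.4 to 1029 CPM in NZO (median 543) and from 0.0664 to 9.98 CPM in PWK (median 4.25). The groups did not overlap although NZO 8 was far below the next NZO library at 451 CPM, and the log2 fold change was 7.05 (SE 1.03, adjusted p = 1.18e-05). The neighbouring hydroxylase gene Cyp4a10 averaged 789 ± 403 CPM in NZO and 129.7 ± 115 CPM in PWK (log2 fold change 2.60, adjusted p = 0.0194). In PWK it was at 161 to 291 CPM in the high-Xist libraries and at 1.36 to 82.5 CPM in the others, and NZO 8, at 92.2 CPM, was inside the PWK range.

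Vnn1, a pantetheinase, stood at 54.4 to 182 CPM in NZO (median 129.7) and 0.664 to 14.7 CPM in PWK (median 5.28), without overlap (log2 fold change 4.28, SE 0.59, adjusted p = 3.52e-07). Pdk4, the kinase that shuts off pyruvate entry into mitochondria, had an NZO median of 48.2 CPM (range 11.6 to 65.3) and a PWK median of 6.39 CPM (range 3.3 to 10.3). Its ranges did not overlap, its log2 fold change was 2.76 (SE 0.49, adjusted p = 1.36e-05), and PWK had the lowest mean of the 8 strains. Acot2, a mitochondrial acyl-CoA thioesterase, was at 18.7 CPM in NZO (median, range 8.66 to 26.3) and 1.39 CPM in PWK (range 0.551 to 2.98), again apart (log2 fold change 3.46, adjusted p = 5.72e-07). Cpt1a, the gate of mitochondrial entry, was higher by 0.84, Cpt2 by 0.56 and the carrier Slc25a20 by 0.70 (adjusted p of 2.70e-06, 2.86e-05 and 1.28e-06). Ppara itself was higher by 0.49. Angptl4, an inhibitor of lipoprotein lipase, was lower at -0.59, as was Etfa at -0.38. Fgf21 was not called (0.87): its levels ran from 1.08 to 8.18 CPM in NZO and from 0.133 to 5.21 CPM in PWK.

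Oxidative phosphorylation genes showed small differences, lower more often than higher. Of 45 tested, 4 were higher and 19 lower, against 27.2% and 23.0% of all genes. None of these differed by 2-fold, and the median of the list was -0.13. Cox5b, a subunit of cytochrome c oxidase, was at 63.1 ± 9.55 CPM in NZO and 101 ± 11 CPM in PWK, without overlap (log2 fold change -0.68, SE 0.08, adjusted p = 1.30e-10). Ndufa6 of complex I gave 44.7 ± 5.24 and 71.6 ± 6.59 CPM, also without overlap (log2 fold change -0.68). Ndufs7 (-0.47), Ndufs3 (-0.46) and the ATP synthase subunit Atp5b (-0.34) were lower too, and Uqcrc1 of complex III was higher at 0.40. NZO 8 was the lowest NZO library for all 6 of these genes, and without it 6 genes were higher and 19 lower.

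In glycolysis and fructose use 5 of 19 genes were higher and 5 lower (median 0.05), close to the shares over all genes, and 6 and 5 without NZO 8. Tkfc, which phosphorylates the glyceraldehyde made from fructose, was at 350.2 to 713 CPM in NZO (median 457) and 146 to 289 CPM in PWK (median 213), with no overlap (log2 fold change 1.20, SE 0.22, adjusted p = 7.06e-06). Pgk1, of lower glycolysis, stood at 117 ± 12.6 CPM in NZO and 249.7 ± 18.8 CPM in PWK, apart in every library (log2 fold change -1.09, adjusted p = 6.87e-15). The pyruvate dehydrogenase kinase Pdk1 was lower at -1.08 (adjusted p = 1.37e-05), opposite to Pdk4. Fructokinase (Khk) was not called (-0.05).

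In gluconeogenesis and glycogen, 3 of 18 genes were higher and 3 lower (median -0.14), below the shares over all genes. The lower count was 4 without NZO 8 and 5 without PWK 6. Fructose bisphosphatase (Fbp1) was at 1112 ± 193 CPM in NZO and 680.1 ± 118 CPM in PWK without overlap (log2 fold change 0.71, adjusted p = 5.25e-04). The phosphorylase Pygl, of glycogen breakdown, was lower at 561 ± 83.9 CPM in NZO against 852 ± 124 CPM in PWK. Its libraries did not overlap (log2 fold change -0.60, adjusted p = 0.00334). Gyg, the glycogen primer, was higher at 0.86 (adjusted p = 4.18e-05). Pck1 (-0.39) and G6pc (-0.59), the classic gluconeogenic genes, were not called.

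Among 23 genes of insulin and growth hormone signalling, 7 were higher and 8 lower in NZO, and 5 and 8 without NZO 8. Over all genes, 27.2% were higher and 23.0% lower. Igfbp2, a secreted binding protein of insulin-like growth factors, ranged from 19 to 49 CPM in NZO (median 26.4) and from 232 to 504 CPM in PWK (median 303). The groups were far apart (log2 fold change -3.44, SE 0.24, adjusted p = 9.25e-17), and NZO had the lowest mean of the 8 strains, the other 6 lying at 168 to 671 CPM. Socs2 and Cish, feedback inhibitors induced by growth hormone, were lower at -2.62 and -1.83 (adjusted p = 0.00137 and 0.0166). The PWK libraries of high Xist held 62.5 to 95.4 CPM of Socs2, and those of low Xist 1.68 to 35.6 CPM, against 2.26 to 11.6 CPM in NZO. For Cish the adjusted p without PWK 6 was 0.0591. Enho, the adropin gene, was at 1.4 CPM at the NZO median and 0.126 CPM at the PWK median, with 27.5 CPM in NZO 8. Its log2 fold change was 4.74, and 3.36 without NZO 8 (adjusted p = 1.35e-06). The insulin receptor gene Insr was higher by 0.42, the adaptor Grb10 by 1.34, and Akt2 was lower at -0.35. The growth hormone receptor Ghr (-0.12), Igf1 (-0.29), Irs1 (0.13) and Irs2 (-0.90) were not called, but Irs2 was past the threshold without NZO 8 (-1.39, adjusted p = 0.00212). The count of higher genes was 4 without PWK 4 or PWK 9.

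Of 23 lipoprotein genes 7 were higher and 5 lower, close to the shares over all genes, and 5 and 5 without NZO 8. Scarb1, the receptor for high-density lipoprotein, ranged from 62.9 to 118 CPM in NZO (median 69.6) and from 143 to 295 CPM in PWK (median 189). It did not overlap (log2 fold change -1.35, SE 0.16, adjusted p = 1.24e-09), and NZO was the lowest of the 8 strains. Apoa1, the main protein of that particle, was at 2684 ± 676 CPM in NZO and 5383 ± 819.7 CPM in PWK, also apart (log2 fold change -1.004, adjusted p = 9.75e-08). Pltp, which transfers phospholipid between particles, was higher at 1.48 (adjusted p = 8.81e-04), with overlapping ranges. Sort1, a sorting receptor, was higher at 1.32, or 0.76 without NZO 8, which alone held 35.1 CPM against at most 9.11 CPM in the other NZO libraries. Lpl was higher at 0.98 and hepatic lipase (Lipc) lower at -0.94. Apoe (0.12), Apob (-0.02) and Mttp (0.16) were not called.

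Bile acid genes gave 6 higher and 9 lower of 27 (median -0.11), against 27.2% and 23.0% of all genes. Cyp7b1, of the alternative synthesis pathway, ranged from 10.3 to 79.9 CPM in NZO (median 15.4) and from 480.4 to 1529 CPM in PWK (median 768). The strains were apart in every library (log2 fold change -4.98, SE 0.69, adjusted p = 8.80e-07) and held opposite ends of the 8 strains. Abcb11, the canalicular bile salt pump, was at 375 ± 82.5 CPM in NZO and 1011 ± 107 CPM in PWK without overlap (log2 fold change -1.43, adjusted p = 6.94e-07), and Slc10a1, the uptake carrier NTCP, was lower at -0.47. Exporters to the blood side were higher, Abcc4 by 2.32 (range 4 to 17.6 against 0.787 to 3.76 CPM) and Abcc3 by 1.41 (adjusted p = 2.10e-05 and 7.29e-04). Cyp27a1 (-1.07) and the repressor Nr0b2 (-0.92) were lower. Cyp7a1, the rate-limiting enzyme of the classic pathway (-0.30), and Cyp8b1 (-0.09) were not called.

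Of 44 P450 genes of xenobiotic metabolism 11 were higher and 9 lower, close to the shares over all genes, and 11 and 8 without NZO 8. Reads of these near-identical family members may have been split between genes. Cyp2c38 was at 5.56 to 177 CPM in NZO (median 131) and 0.0787 to 0.985 CPM in PWK (median 0.273). The groups did not overlap, NZO 8 was lowest in NZO, and the log2 fold change was 8.34 (SE 1.07, adjusted p = 1.20e-07). Cyp2a22 reached 135 to 165 CPM in high-Xist NZO libraries, 16.8 to 39.4 CPM in NZO 5 to 7 and 1.45 CPM in NZO 8, against 0.453 to 1.09 CPM in PWK (log2 fold change 6.86, adjusted p = 7.00e-05). Cyp3a59 was higher at 4.60 and Cyp2c39 at 2.64. On the lower side were Cyp2c44 (-3.91), Cyp2c68 (-3.81), Cyp1a2 (-2.05), which handles caffeine, and Cyp2e1 (-0.93), which handles ethanol. Cyp3a11 (-1.11) and Cyp2b10 (0.09), the classic drug-induced genes, were not called.

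Conjugation enzymes gave 18 higher and 11 lower of 50, against 27.2% and 23.0% of all genes, and 20 and 9 without NZO 8. Sult1e1, the estrogen sulfotransferase, ranged from 8.62 to 87.1 CPM in NZO (median 25.3, highest in NZO 8) and from 0 to 0.204 CPM in PWK (median 0.0333). It was apart in all libraries, and the log2 fold change was 8.95 (SE 1.08, adjusted p = 5.23e-15). Sult5a1 was at 3.76 CPM in NZO (median, range 1.94 to 10.7) and 107 CPM in PWK (range 66.5 to 142), a log2 fold change of -4.44 (adjusted p = 1.68e-08) with no overlap. Targets of NRF2, the factor of antioxidant defence, were higher: 15 of 21 higher and 1 lower, with a median of 0.54, and 15 and 1 of 20 without NZO 8. Epoxide hydrolase (Ephx1) ranged from 310.5 to 831 CPM in NZO (median 419.6) and 63.3 to 155 CPM in PWK (median 88.8). It did not overlap (log2 fold change 2.30, SE 0.23, adjusted p = 5.93e-12). Pgd and G6pdx, which make NADPH, were higher at 1.51 and 1.07, and G6pdx at 0.68 (adjusted p = 0.0462) without NZO 8. Srxn1 (1.38), Txnrd1 (0.89), Gclc (0.53) and Gclm (0.57) were higher, Aox1 was lower (-0.97) and Nqo1 was not called (0.08).

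Major urinary proteins are pheromone carriers secreted by the liver. Of 20 tested, 9 were lower and 4 higher in NZO (median -1.38), against 23.0% and 27.2% of all genes. Their sequences are near-identical, so single members are uncertain. Mup17 ranged from 0.79 to 169 CPM in NZO (median 2.81) and from 946 to 41391 CPM in PWK (median 9253). In PWK it was at 946 to 1387 CPM in the high-Xist libraries and at 17119 to 41391 CPM in the others, and NZO 6 was the highest NZO library. The log2 fold change was -9.04 (SE 0.98, adjusted p = 2.16e-07), and -10.50 without NZO 6. Mup18 was at 0 to 2.82 CPM in NZO and 211 to 7138 CPM in PWK (log2 fold change -11.87, and -12.55 without NZO 6). Mup3 went the other way, at 166 to 3941 CPM in NZO and 13.8 to 145 CPM in PWK, with no overlap (log2 fold change 4.87, adjusted p = 1.57e-06).

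Genes known to be higher in male liver gave 1 higher and 9 lower of 19 in NZO (median -1.58). Those known to be higher in female liver gave 3 higher and 3 lower of 22, below the 27.2% and 23.0% of all genes. Without NZO 8 these counts were 1 and 7, and 3 and 2. With Xist as a covariate they were 1 and 13, and 10 and 4. The higher count of the female-biased list was 5 without PWK 7. Serpina1e, an antitrypsin gene, was at 9.18 to 15.7 CPM in high-Xist NZO libraries and 86.4 to 463 CPM in NZO 5 to 8. In PWK the corresponding ranges were 61.3 to 347 CPM and 4489 to 7966 CPM. Its log2 fold change was -4.82 (SE 0.85, adjusted p = 5.64e-05), and -5.85 without NZO 6. Slco1a1, an organic anion carrier, was at 3.76 to 6.80 CPM in NZO 1 to 4, 113 to 275 CPM in NZO 5 to 7, 4.77 CPM in NZO 8, and 219 to 932 CPM in PWK. Cyp4a12a, a fatty acid hydroxylase, showed the same break in NZO 8. It was at 291 to 691 CPM in NZO 5 to 7 but at 1.11 CPM in NZO 8, which is near the 0.551 to 0.968 CPM of the high-Xist libraries, and it was not called between the strains (-0.51).

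The relation of each gene to Xist was tested as an interaction, the slope of log2 CPM on log2(Xist CPM + 0.5) in NZO against that in PWK. The slope differed for 618 of 16165 genes (3.82%), and for 457 of 16128 (2.83%) without NZO 8. Among the female-biased genes it differed for 12 of 22, and for 11 without NZO 8. Sult3a1, a sulfotransferase, was at 455 to 771 CPM in high-Xist PWK libraries and at 0 to 1.02 CPM in the others, with 27.9 to 39.9 and 0.0983 to 2.40 CPM in NZO. Its slope was 0.48 in NZO and 1.52 in PWK (adjusted p = 3.10e-07 for the difference). Its strain contrast, -4.30 (adjusted p = 0.0393), was lost on leaving out any of NZO 5, 6, 7 and 8 or PWK 1, 6 and 7 (adjusted p up to 0.063). With Xist as a covariate it was -0.75 (adjusted p = 0.649).

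Sult2a2 showed the opposite pattern: 106 to 122 CPM in NZO 1 to 4, at most 0.126 CPM in NZO 5 to 8 and at most 0.272 CPM in any PWK library (slopes 1.06 and 0.07, adjusted p = 0.0319). Its neighbour in the family, Sult2a1, was at 229 to 263 CPM in NZO 1 to 4 and at most 0.219 CPM in NZO 5 to 8. In PWK it was present in all libraries at 113 to 454 CPM (slopes 1.14 and 0.15, adjusted p = 6.50e-05). Mup20, known as darcin, was at 4834 to 10265 CPM in low-Xist PWK libraries, 35.6 to 86.3 CPM in high-Xist ones and 3.95 to 109 CPM in NZO (slopes -0.33 and -0.88, adjusted p = 0.00149).

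**Figure D4:**
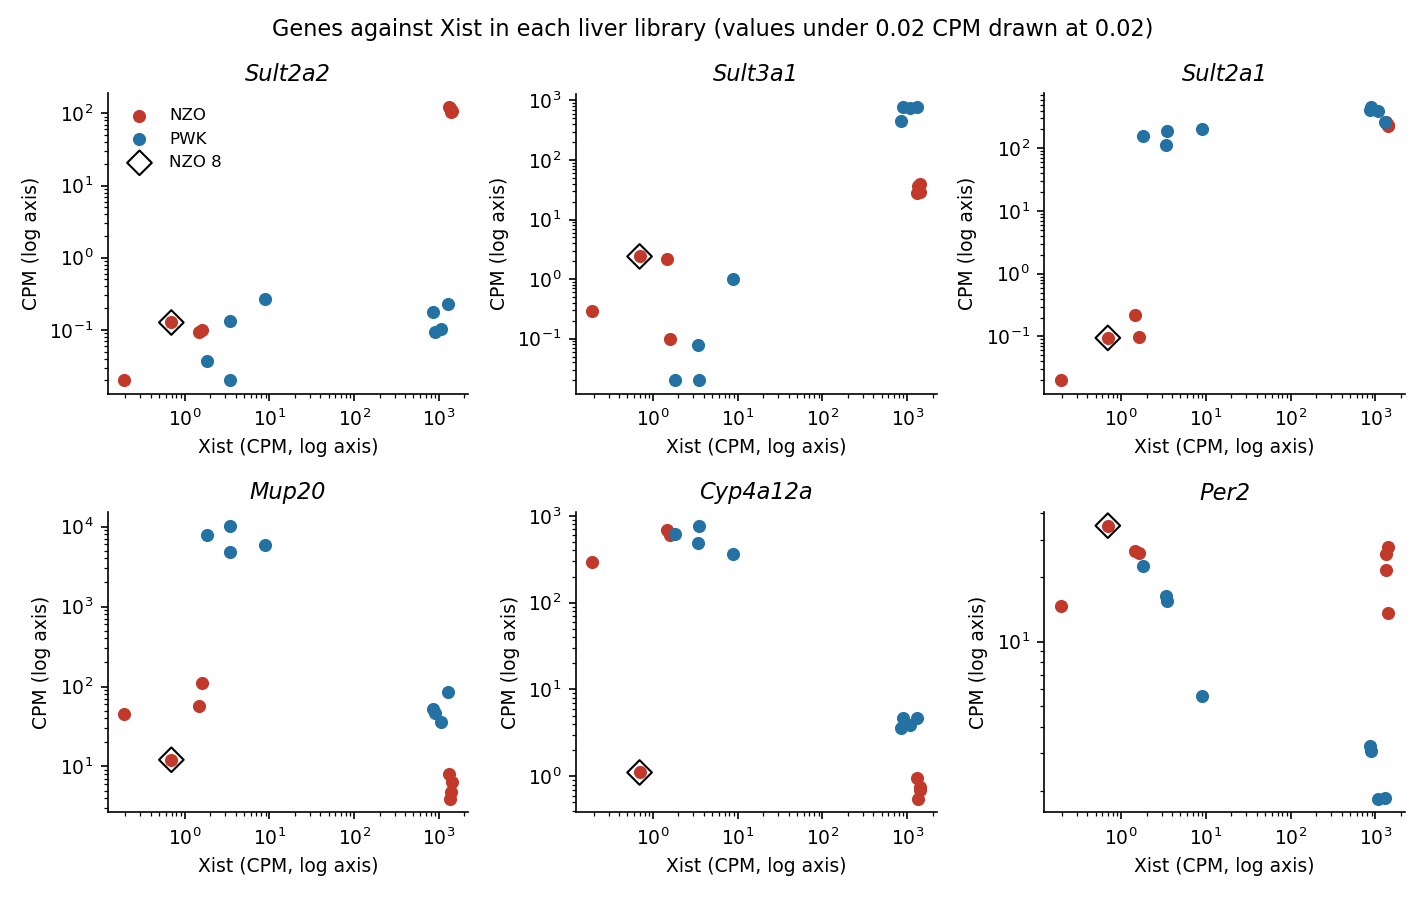
CPM of 6 genes against Xist CPM in each NZO and PWK library (both axes log), NZO 8 as an open diamond. Sult3a1 climbs with Xist in PWK, Sult2a1 and Sult2a2 in NZO, and Per2 falls with Xist in PWK from 5.57 to 22.7 CPM to 1.84 to 3.26 CPM.

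Clock genes differed in the same way. Few of the 21 were called between the strains, 2 higher and 1 lower, against 27.2% and 23.0% of all genes. The higher count was 1 without any of NZO 2 and 8 or PWK 1, 6, 7 and 9. But 9 had different slopes, and 8 without NZO 8, against 3.82% and 2.83% of all genes. Per2, a clock repressor higher in NZO by 1.45 (adjusted p = 0.0058), was at 1.84 to 3.26 CPM in high-Xist PWK libraries and 5.57 to 22.7 CPM in the others, while the NZO range was 13.7 to 34.9 CPM at either Xist level (slopes -0.02 and -0.33, adjusted p = 1.85e-04). Arntl, which encodes the activator BMAL1, moved oppositely: 34.5 to 36.6 CPM in high-Xist PWK libraries, 9.69 to 21.7 CPM in the others, and 16.4 to 26.4 CPM in NZO (adjusted p = 0.0393). Dbp, a clock output factor, was at 0.259 to 0.713 CPM against 3.80 to 48.5 CPM within PWK and at 2.18 to 21.9 CPM in NZO (adjusted p = 0.00393). Per3, Npas2, Nr1d1, Nr1d2, Tef and Hlf made up the 9, and Hlf was not past the threshold without NZO 8 (adjusted p = 0.0531). The labels give no hour of collection, so hour and Xist level cannot be told apart here.

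Interferon response genes were higher more often than lower in NZO, 16 against 6 of 44, with a median of 0.39, and 19 against 6 without NZO 8. Over all genes, 27.2% were higher and 23.0% lower. The guanylate-binding and immunity-related GTPases, interferon-induced defence proteins against intracellular parasites, gave 10 higher and none lower of 20 (median 0.67), and 11 and none without NZO 8. Promoters of 4 of these genes are shown because members moved together in one list and apart in the other. Each is the 250 bases before the RefSeq start in GRCm38.p6, which is the reference strain's sequence, not that of NZO or PWK. Capitals mark matches, on either strand, to GAAA, any 2 bases, GAAA, the core of an interferon-stimulated element. Only called members with at least 5 CPM in the higher strain and a match in these bases could be chosen. Of the lower members with an entry, Lgals3bp (-2.01), Xaf1 (-1.62) and Oasl2 (-0.60) held 0 matches and Stat2 (-0.45) held 1. Gbp2b (chr3:142594597-142594846, plus strand), Ifit3 (chr19:34583279-34583528, plus strand) and Tgtp1 (chr11:48992247-48992496, minus strand) were higher in NZO, and Stat2 (chr10:128270248-128270497, plus strand) was lower.
Gbp2b: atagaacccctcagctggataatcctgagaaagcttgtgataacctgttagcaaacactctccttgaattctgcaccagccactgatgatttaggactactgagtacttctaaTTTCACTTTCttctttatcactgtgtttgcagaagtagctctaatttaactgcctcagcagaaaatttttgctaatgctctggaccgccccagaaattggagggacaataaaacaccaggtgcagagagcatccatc
Ifit3: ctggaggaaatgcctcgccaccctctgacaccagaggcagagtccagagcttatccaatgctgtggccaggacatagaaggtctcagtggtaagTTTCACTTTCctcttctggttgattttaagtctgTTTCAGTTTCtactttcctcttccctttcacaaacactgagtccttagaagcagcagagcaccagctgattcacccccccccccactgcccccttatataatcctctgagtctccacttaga
Tgtp1: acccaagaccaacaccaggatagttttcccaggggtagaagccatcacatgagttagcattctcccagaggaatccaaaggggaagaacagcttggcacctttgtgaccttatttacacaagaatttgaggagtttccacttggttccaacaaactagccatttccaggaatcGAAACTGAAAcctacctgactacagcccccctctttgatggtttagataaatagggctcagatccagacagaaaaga
Stat2: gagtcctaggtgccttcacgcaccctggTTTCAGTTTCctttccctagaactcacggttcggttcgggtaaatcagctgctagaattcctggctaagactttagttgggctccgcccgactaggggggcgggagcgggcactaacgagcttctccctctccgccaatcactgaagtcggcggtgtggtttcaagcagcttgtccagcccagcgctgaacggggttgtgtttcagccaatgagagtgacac
The motif occurred in the windows of 250 bases before the start of 936 of 27025 genes in the RefSeq table (3.46%). In those windows 10 of 12 GTPase genes with an entry held it (83.3%), 6 of 8 higher in NZO and 4 of 4 not called. In the interferon list it was 12 of 32 (37.5%): 4 of 10 higher in NZO, 1 of 4 lower and 7 of 18 not called. Matches are described as letters in these windows only.

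Gbp10 ranged from 3.6 to 83.1 CPM in NZO (median 49.4) and from 0.146 to 0.678 CPM in PWK (median 0.427). There was no overlap, NZO 8 being the lowest NZO library, and the log2 fold change was 6.63 (SE 0.51, adjusted p = 1.67e-15). Gbp2b was at 3.09 to 30.1 CPM in NZO (median 7.99, highest in NZO 5) and 0.0731 to 0.524 CPM in PWK (median 0.256), again apart (log2 fold change 5.38, SE 0.52, adjusted p = 1.40e-12). Tgtp1, a T-cell-specific GTPase, had its highest NZO level in NZO 5 too, at 47.8 CPM, with 4.06 to 16.5 CPM in the other NZO libraries and 0.951 to 5.81 CPM in PWK. The ranges overlapped (log2 fold change 2.29, adjusted p = 4.28e-04). Gbp2, Gbp5, Gbp7, Gbp3 and Ifi47 were higher by 1.06 to 1.64, and Irgm1 (0.01), Iigp1 (-0.22) and Gbp9 (-0.01) were not called.

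Ifi27, a mitochondrial interferon-induced protein, ranged from 29.1 to 87.7 CPM in NZO (median 73.3) and from 7.3 to 13.8 CPM in PWK (median 11.8). The groups did not overlap (log2 fold change 2.64, SE 0.20, adjusted p = 4.97e-16), and the strains held opposite ends of the 8. Ifit3 was at 12.6 CPM in NZO (median, range 3.76 to 19.4) and 2.48 CPM in PWK (range 0.815 to 3.52), also apart (log2 fold change 2.39, adjusted p = 2.84e-08). Isg15 was higher at 1.86, Rsad2 at 1.22 and the antiviral GTPase Mx1 at 1.14. In contrast Stat2 was lower at -0.45 and Parp14 at -0.37. Lgals3bp, a secreted glycoprotein, stood at 58.7 to 105 CPM in NZO and 203 to 442 CPM in PWK (log2 fold change -2.01, adjusted p = 7.28e-17). PWK had the highest mean of the 8 strains for this gene, the 6 others lying at 44.6 to 90.8 CPM. Irf7 (-0.09), Irf9 (0.00) and Oas2 (-0.16) were not called.

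Mx2, the second Mx gene (chr16:97535308-97560900), is annotated as a polymorphic pseudogene, a gene intact in some strains only. It had 5 reads in all 8 NZO libraries together, at most 0.0632 CPM in any of them, and 39.5 to 92.5 CPM in PWK (median 60.2). The log2 fold change was -11.48 (SE 1.28, adjusted p = 1.13e-22), and the 6 other strains had means of 4.55 to 73.9 CPM.

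Class I antigen presentation genes were higher in NZO, 13 of 21 with 1 lower (median 0.67), against 27.2% and 23.0% of all genes. Without NZO 8 the counts were 12 and 1. H2-Q10, a class I molecule secreted by the liver, ranged from 1462 to 3819 CPM in NZO (median 3238) and from 290.3 to 615 CPM in PWK (median 499.6). It was apart in every library (log2 fold change 2.57, SE 0.25, adjusted p = 7.44e-12). H2-K1 (1.66) and H2-D1 (1.64), the classical class I genes, H2-T22 (2.23), the peptide transporter Tap1 (1.16), the immunoproteasome subunits Psmb8 (1.16) and Psmb9 (1.45), B2m (0.62) and the activator Nlrc5 (0.54) were higher. H2-T10 was lower (-1.24). These genes vary in sequence between strains, and how such reads were counted is not given in the sources used here.

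In class II, 4 of 10 genes were higher and none lower, against 27.2% and 23.0% of all genes. Without NZO 8 the counts were 4 and 1. H2-Eb1, the beta chain of the E molecule, was at 20.3 to 122 CPM in NZO (median 56.1) and 0.585 to 1.57 CPM in PWK (median 1), without overlap (log2 fold change 5.88, SE 0.41, adjusted p = 3.83e-16). H2-Ea-ps, the locus of the alpha chain of the same molecule, was at 7.78 to 50.6 CPM in NZO and 0 to 0.136 CPM in PWK, with 8 reads over all PWK libraries (log2 fold change 9.40, and 10.08 without PWK 9). The A molecule genes H2-Aa (-0.71) and H2-Ab1 (-0.57), the invariant chain Cd74 (0.17) and the class II activator Ciita (0.13) were not called, and H2-Aa was past the threshold, lower, without NZO 8 (-0.88, adjusted p = 0.0348). Without NZO 5, the highest NZO library for H2-Aa, H2-Ab1, Cd74 and Ciita, 2 class II genes were lower.

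**Figure D5:**
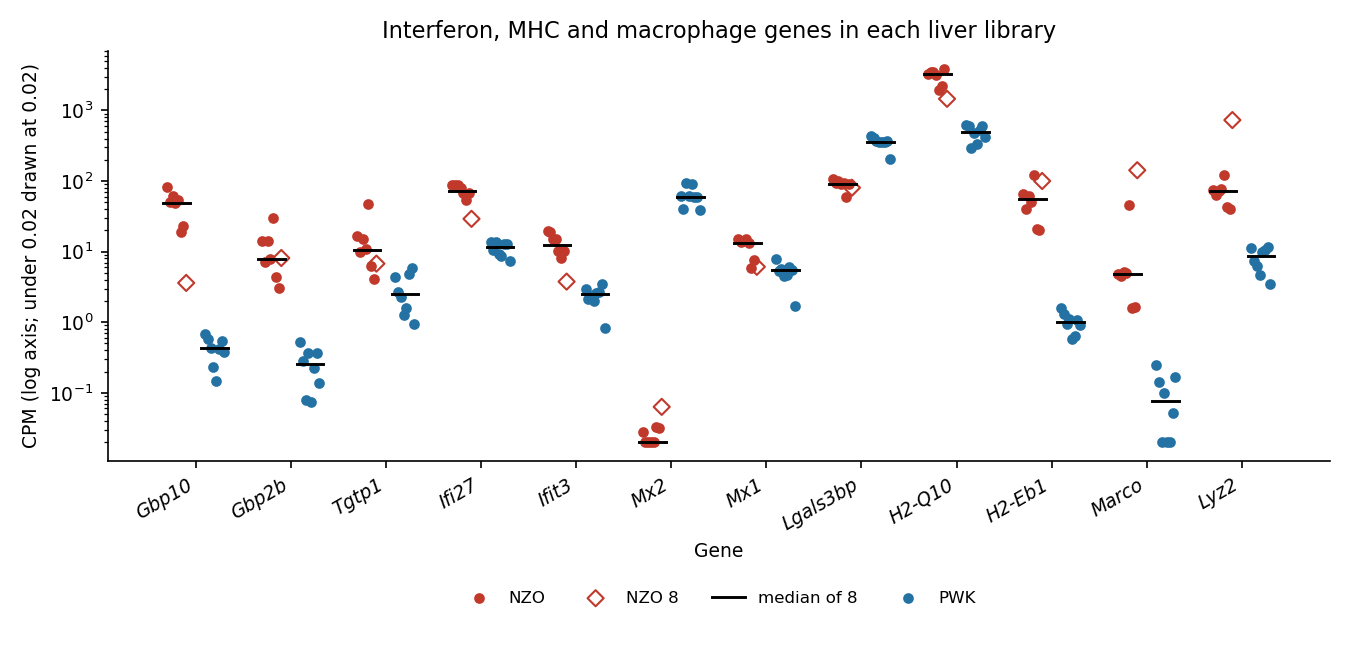
CPM of 12 interferon, GTPase, antigen presentation and macrophage genes in each library (log axis), with NZO 8 as an open diamond, the median of each strain's 8 libraries as a line, and values under 0.02 drawn at 0.02. Mx2 and Lgals3bp are the genes higher in PWK, and NZO 8 is the highest library for Marco and Lyz2 at 142 and 731 CPM.

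Macrophage genes were higher in NZO. Of 21 Kupffer cell and macrophage genes 17 were higher and none lower (median 1.24), against 27.2% and 23.0% of all genes. Without NZO 8 the counts were 16 and none (median 0.93). The list summed to 518.8 to 1434 CPM in NZO 1 to 7, 2495 CPM in NZO 8 and 420.5 to 816.9 CPM in PWK. Marco, a scavenger receptor, ranged from 1.6 to 142 CPM in NZO (median 4.87) and from 0 to 0.247 CPM in PWK (median 0.0757). NZO 8 and NZO 5, at 45.5 CPM, stood above the other 6, which were at 1.60 to 5.13 CPM and all above PWK. The difference on the log2 scale was 8.12 (SE 1.48, adjusted p = 1.48e-07), and 6.66 without NZO 8 (adjusted p = 1.46e-06). Lysozyme (Lyz2) was at 39.6 to 731 CPM in NZO (median 73) and 3.5 to 11.8 CPM in PWK (median 8.66). The next NZO library after NZO 8 held 123 CPM, no library overlapped, and the log2 fold change of 4.22 became 3.08 without NZO 8 (adjusted p = 1.06e-13). Folr2, a folate receptor of resident macrophages, was at 11.5 ± 3.32 CPM in NZO and 0.957 ± 0.332 CPM in PWK, apart in all libraries (log2 fold change 3.58, adjusted p = 1.49e-16). Adgre1 (1.91), which encodes F4/80, Csf1r (1.41), Cd163 (1.38), Cd5l (1.29) and Timd4 (1.24) were higher. The Kupffer marker Clec4f (-0.43) and the complement genes C1qa (0.02) and C1qc (0.31) were not called.

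Genes of lipid-associated macrophages gave 8 higher and none lower of 11, against 27.2% and 23.0% of all genes. Without NZO 8 the counts were 7 and none. Cd9 (1.4996), osteopontin (Spp1, 1.47), galectin-3 (Lgals3, 1.36), Gpnmb (1.54) and Trem2 (3.03) were among the 8 higher genes. Without NZO 8, Lgals3 stood at 0.81 (adjusted p = 0.00254) and Spp1 at 1.14 (adjusted p = 2.45e-05). Trem2, a lipid receptor, averaged under 1 CPM in both strains, at 0.558 and 0.0639 CPM.

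Of 28 stellate cell and collagen genes 8 were higher, close to the share over all genes, and 2 lower. Without NZO 8 these counts were 6 and 5. Col1a2 was at 10.4 to 39 CPM in NZO (median 17.4) and 2.95 to 9.03 CPM in PWK (median 7.48), with no overlap (log2 fold change 1.65, SE 0.23, adjusted p = 3.08e-08), and Col1a1 gave 1.61 (adjusted p = 8.77e-05). Col3a1 was higher at 0.97 (adjusted p = 0.0096), but not past the threshold without NZO 8 (adjusted p = 0.0713). Ecm1 was lower in every library, at 60.8 ± 14 against 133 ± 13.6 CPM (log2 fold change -1.13). Acta2 (0.09), Lrat (-0.02) and Pdgfrb (-0.11), markers of stellate cells, were not called.

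Sinusoidal endothelial genes were lower in NZO, 11 of 20 with 1 higher (median -0.30), against 23.0% and 27.2% of all genes. Without NZO 8 the counts were 11 lower and none higher. Lyve1, a hyaluronan receptor, was at 15.6 ± 3.24 CPM in NZO and 31.1 ± 3.9 CPM in PWK (log2 fold change -0.99, adjusted p = 1.83e-04). Kdr, the receptor for vascular growth factor, gave 62.4 ± 11.5 and 105 ± 10.9 CPM (log2 fold change -0.75, adjusted p = 6.01e-08) and the angiopoietin receptor Tek 15.1 ± 2.67 and 25.7 ± 2.33 CPM (-0.77, adjusted p = 2.33e-09). None of these 3 genes overlapped between the strains. In the whole list 4 of 20 genes did not overlap, against 17.5% of all genes. Stab2 (-0.34) and Wnt2 (-0.78) were lower, while Clec4g (-0.03) and Mrc1 (-0.09) were not called.

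Cell cycle genes were higher in NZO, 19 of 28 with 1 lower (median 1.27), against 27.2% and 23.0% of all genes. Without NZO 8 the counts were 15 and 3 (median 0.93). The neutrophil, macrophage and lymphocyte sums were also highest in NZO 8, and their part in these counts was not tested. Mki67, the proliferation marker, ranged from 7.4 to 20.6 CPM in NZO 1 to 7 and reached 97.7 CPM in NZO 8, against 0.611 to 5.77 CPM in PWK. No library overlapped, and the log2 fold change was 2.98 (adjusted p = 2.86e-08), or 2.22 without NZO 8 (adjusted p = 5.44e-07). Top2a was at 2.49, and 1.37 without NZO 8 (adjusted p = 6.98e-04), and Mcm6, of the replication helicase, at 1.86 without overlap (adjusted p = 6.86e-06). Cdkn1a, an inhibitor of the cycle, was higher too, at 1.67. E2f7, a repressor of the cycle, was the gene called lower: 0.821 to 3.26 CPM in NZO (median 1.14) and 87.3 to 150.2 CPM in PWK (median 121), and the difference on the log2 scale was -6.46 (SE 0.36, adjusted p = 3.63e-19). PWK had the highest mean of the 8 strains, the other 6 lying at 0.504 to 8.82 CPM.

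In 3 groups the result rested mainly on NZO 8. All 8 tested neutrophil genes were higher in NZO, against 27.2% of all genes, with a median of 7.64. Without NZO 8 the higher count was 6, against 24.1% of all genes, with a median of 2.68. S100a9, a calprotectin subunit, was at 714 CPM in NZO 8, 0.59 to 3.64 CPM in NZO 1 to 7 and 0 to 0.247 CPM in PWK. Its log2 fold change of 10.04 became 4.30 without NZO 8 (adjusted p = 6.63e-07), and NZO 1 to 7 were still all above PWK. Ngp and Ltf, granule proteins, were at 566 and 423 CPM in NZO 8 and at most 0.742 and 0.770 CPM in NZO 1 to 7. Their log2 fold changes were 10.50 and 9.60, and 3.12 and 2.54 without NZO 8. Of 25 acute phase genes 10 were higher and 3 lower, against 27.2% and 23.0% of all genes. Without NZO 8 the counts were 3 higher and 5 lower, against 24.1% and 24.4% of all genes. Saa1, serum amyloid A, was at 7371 CPM in NZO 8, 17.9 to 442 CPM in NZO 1 to 7 and 8.87 to 413 CPM in PWK, with PWK 4 the highest there. Its log2 fold change was 3.92, 0.73 without NZO 8 (adjusted p = 0.558) and 5.80 without PWK 4. Lcn2, which binds bacterial siderophores, gave 5.42 and, without NZO 8, 1.79 (adjusted p = 0.0903).

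Orm1, an acid glycoprotein, kept its call in that setting: 294 to 568.1 CPM in NZO 1 to 7, 3557 CPM in NZO 8 and 3.04 to 146 CPM in PWK. The libraries did not overlap, and the log2 fold change was 4.91, 3.996 without NZO 8 (adjusted p = 1.48e-07) and 6.22 without PWK 4. PWK had the lowest mean of the 8 strains. Serpina3k was lower at -2.03 (adjusted p = 2.40e-08). Of 23 lymphocyte genes 12 were higher and 1 lower, against 27.2% and 23.0% of all genes. Without NZO 8 the counts were 3 and 1, against 24.1% and 24.4% of all genes. The list summed to 221.4 CPM in NZO 8, 10.9 to 24.3 CPM in the other NZO libraries and 10.3 to 31.1 CPM in PWK. Igkc and Ighm, immunoglobulin genes, changed sign, from 1.70 and 1.45 to -0.38 and -0.41.

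Genes of the hepatocyte list were mostly lower where they were called, 6 of 19 against 1 higher, and 7 against 1 without NZO 8. Over all genes, 23.0% were lower and 27.2% higher. Apoh gave 1166 ± 165 CPM in NZO and 1901 ± 158 CPM in PWK without overlap (-0.71, adjusted p = 5.72e-10), and Hnf4a, the main hepatocyte factor, was lower at -0.35 (adjusted p = 0.00708). Alb (-0.11) and Ttr (-0.37) were not called. Of 16 periportal genes 7 were lower and none higher, and 6 and none without NZO 8. E-cadherin (Cdh1) ranged from 5.15 to 18.6 CPM in NZO (median 8.42) and from 38.4 to 84.3 CPM in PWK (median 65.4), without overlap (log2 fold change -2.59, SE 0.28, adjusted p = 1.19e-10). Of 17 pericentral genes 4 were higher and 3 lower, both below the shares over all genes. The ammonium transporter Rhbg was higher at 2.49 (adjusted p = 4.08e-10) and the Wnt inhibitor Notum lower at -1.34 (adjusted p = 1.57e-08), while Glul (-0.41), Axin2 (-0.34) and Lgr5 (-0.48) were not called.

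Amino acid genes gave 6 higher and 10 lower of 42, against 27.2% and 23.0% of all genes, and 6 and 9 without NZO 8. Enzymes of the methionine cycle moved apart: Bhmt, which remethylates homocysteine, was at 3302 to 7615 CPM in NZO (median 4171) and 636 to 1799.9 CPM in PWK (median 1460.0). Ahcy, which splits S-adenosylhomocysteine, was at 276 to 593 CPM (median 350.1) and 1127 to 2405 CPM (median 1384). Neither overlapped between the strains, and the log2 fold changes were 1.77 (SE 0.23, adjusted p = 1.24e-08) and -1.96 (SE 0.19, adjusted p = 1.47e-12). Mat1a was higher at 1.03 and Cbs lower at -0.43. Cps1, the entry of the urea cycle, was lower at -1.06 (adjusted p = 5.51e-06), with NZO 6 alone reaching the PWK range, and Otc (-0.05), Ass1 (-0.17) and Arg1 (0.15) were not called. Oat, which breaks down ornithine, was higher at 1.62 (adjusted p = 5.04e-06).

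Complement and clotting genes gave 8 higher and 11 lower of 41, and 6 and 12 without NZO 8. For these and the other lists of this paragraph, the shares over all genes were 27.2% higher and 23.0% lower. Cpb2, an inhibitor of clot breakdown, was at 248 to 941 CPM in NZO (median 323) and 32.1 to 51.9 CPM in PWK (median 42.6). The strains were apart in every library (log2 fold change 3.19, SE 0.16, adjusted p = 1.36e-22), and PWK lay below the 223 to 367 CPM of the other 6 strains. C6, of the membrane attack complex, was at 25.0 to 27.9 CPM in high-Xist NZO libraries and 62.4 to 99.6 CPM in the others, against 142 to 178 and 439 to 625 CPM in PWK (log2 fold change -2.61, adjusted p = 0.0158). Factor VII (F7) was lower at -1.12 (adjusted p = 9.39e-07) with no overlap. Red cell genes gave 5 higher and 1 lower of 7: Hba-a2 was higher at 2.69 and its near-identical copy Hba-a1 lower at -0.80 (adjusted p = 0.027, and up to 0.0614 without NZO 6, NZO 8 or PWK 4), so reads may have been split between the copies. Alas2, of red cell heme synthesis, was at 114 to 196 CPM in NZO 5 to 7 and 22.9 to 29.0 CPM in the other NZO libraries, with 6.15 to 18.7 CPM in PWK. Of 22 stress genes 3 were higher and 6 lower, 2 and 7 without NZO 8, with Hspa1a at -1.84 and Atf3 at 1.45 (adjusted p = 0.0085 and 0.00649). Of 17 immediate early genes 4 were higher, with Btg2 at 1.86 (adjusted p = 0.00139), while Fos (-0.29) and Egr1 (-0.45) were not called.

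Genes proposed as causes of obesity or diabetes in NZO were given by level. Ifi202b ranged from 5.08 to 18 CPM in NZO (median 11.2) and from 1.63 to 5.24 CPM in PWK (median 3.18), and the other 6 strains had means of 0 to 2.35 CPM. Its ranges overlapped slightly, and the log2 fold change was 1.80 (SE 0.23, adjusted p = 1.46e-08). Tbc1d1, a regulator of glucose transporter traffic, was lower at -0.39 (adjusted p = 0.0243, and 0.0705 without NZO 6). The zinc-finger gene Zfp69 was lower at -0.41 (adjusted p = 0.0295), a call lost without PWK 4 or PWK 5 (adjusted p up to 0.0657). Abcg1, a sterol exporter, was higher at 0.42 (adjusted p = 0.0313) and lost without any of NZO 5 and 8 or PWK 3, 4, 5, 7 and 9 (adjusted p up to 0.185, without NZO 8). Pctp (0.89, adjusted p = 0.0538) and the leptin receptor Lepr (-0.18, adjusted p = 0.841) were not called, and Pctp was past the threshold without NZO 8 (adjusted p = 0.0301).

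Among the largest differences, Slc39a5, a zinc importer, was at 2.98 to 24.3 CPM in NZO (median 15.7) and at most 0.123 CPM in PWK (log2 fold change 8.36, SE 1.21, adjusted p = 1.54e-11). On the PWK side, Miox, which breaks down inositol, was at 32.1 to 41.8 CPM in PWK and 0.0644 to 0.505 CPM in NZO (log2 fold change -7.22, adjusted p = 5.36e-20), and the means of the other 6 strains were at most 0.205 CPM. The carboxylesterase gene Ces2h was at 59.5 to 96.3 CPM in PWK and 0.158 to 0.39 CPM in NZO (-8.14, adjusted p = 5.92e-23). Ceacam2, an adhesion molecule, was at 41.7 to 56.3 CPM in PWK and 0.0632 to 0.907 CPM in NZO (-6.31, adjusted p = 2.80e-24). Tff3, a mucosal trefoil peptide, was at 35.2 to 74.5 CPM in low-Xist PWK libraries, 1.33 to 5.31 CPM in high-Xist ones and at most 0.258 CPM in NZO. No overlap between the libraries of the strains was part of the rule that chose Slc39a5, Miox, Ces2h and Tff3. The libraries of Ceacam2 lay apart too.

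Some genes were close to absent in one strain. With at least 1 CPM in every library of one strain and under 0.1 CPM in every library of the other, 11 genes were found in NZO and 7 in PWK. In NZO they included Sult2a7 (mean 5.2 CPM, with 1 read in PWK), the immune checkpoint gene Vtcn1 (mean 6.33 CPM, 2 reads), the adhesion gene Ncam2 (mean 5.21 CPM, 3 reads) and Gabra3, a GABA receptor subunit (mean 2.21 CPM, no read in PWK). In PWK they were Mx2, Gm7298 (1 read in NZO, mean 96.9 CPM in PWK), Gm30948, Xrra1, Frem2, Lrrtm3 and Slc30a3. Xrra1, at 5.81 to 14.2 CPM in PWK, was under 0.1 CPM on average in all 7 other strains, the highest at 0.0773 CPM.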

How the data were processed

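Estimated counts per gene and log2 variance-stabilised values were deposited by the authors as tables of the whole series. The processing notes of the submitters name GRCm38 and DESeq2, while the aligner, the counting program, its strand setting, and whether reads of each strain were mapped to a genome of that strain were not given in the sources used here. Sequence differences between strains may therefore change a gene's count, most of all in NZO and PWK genes that differ from the reference. Of the deposited counts, 21.0% were not whole numbers, and all were rounded before the fit. Genes were tested with edgeR 4.0.16 (R 4.3.3): TMM scaling, removal of low genes by filterByExpr (16165 of 18754 genes kept), a quasi-likelihood fit of strain over all 60 libraries with a column, the contrast NZO minus PWK, and Benjamini-Hochberg adjustment over all genes tested. A gene was called at an adjusted p under 0.05, with a second rule of a log2 difference of at least 1 added. Log2 fold changes of genes with 3 reads or fewer in a strain are not printed. The slope test added log2(Xist CPM + 0.5) with a slope for each strain and was chosen after seeing the data. limma 3.58.1 on the deposited log2 values and DESeq2 1.42.0 were alternatives. Replicate numbers did not pair the libraries. One column of the count table matched no labelled sample (1 column not used). Promoter sequences are from RefSeq.

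Members and gene lists were chosen with earlier results of these data known. The genes named with full values are the 10 called genes of largest difference in each direction, the 4 called members of each list with the largest difference and at least 5 CPM, the genes proposed for NZO, and the leading genes present in 1 strain, with some left unprinted. The 10 in each direction came from protein-coding genes with at least 5 CPM in the higher strain and no overlap between the strains. Their lack of overlap was thus set by the rule. Other members were named after their values were seen, and some genes counted in the lists are not reported here by name. Reads of near-identical families (Mup, Cyp2c, Cyp4a, Sult, Gbp, H2, Hba) may have been divided between copies. No library was a copy of another by a chi-square comparison of counts over genes.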

Additional observations from a re-analysis of the deposited data

Results flagged for a closer look

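For 284 groups, each 1 named gene in the 8 libraries of 1 strain with its highest library at 1 CPM or more, the most distant library was set against the others by Dixon's criterion. It stood apart in 47 groups, and 35 of the 47 were NZO 8. Chance alone marks about 1 in 20 groups, but the groups share libraries and are not independent. Some genes, such as S100a9, were also named for a difference that NZO 8 enlarged. Neutrophil and macrophage genes were high in NZO 8: S100a9 714 CPM (next NZO library 3.64), S100a8 526 (1.88), Ngp 566 (0.742), Ltf 423 (0.770) and Lyz2 731 CPM (123). Immunoglobulin genes were high there too, Igkc 43.6 CPM (2.17) and Ighm 135 CPM (8.25). So were the secreted proteins Lcn2 1140.1 CPM (28.6), Orm1 3557 (568.1), Orm2 1501 (58.7) and Cpb2 941 CPM (397), and the cell cycle genes Mki67 97.7 CPM (20.6), Top2a 42.6 (9.28), Mcm6 26.4 (7.85) and E2f7 3.26 CPM (1.38). Sort1 at 35.1 CPM (9.11), Gyg at 14.5 CPM (7.85) and BC018473 at 79.6 CPM (15.0) were the other high genes.

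Low in NZO 8 were lipid genes, Scd1 at 404 CPM (next NZO library 11958), Mogat1 1.45 (8.22), Vldlr 4.84 (21.9), Fitm1 2.97 (11.5) and Cyp4a14 36.4 CPM (451). P450 genes were low as well, Cyp2c38 at 5.56 CPM (101), Cyp2f2 57.1 (383) and Cyp3a59 6.32 CPM (26.0). Hepatocyte products were low, Apoh at 802 CPM (1059), Rbp4 801 (1116) and Abcb11 194 CPM (343), as were the respiratory subunits Cox5b 43.4 CPM (60.4), Ndufa6 33.1 (42.3), Ndufs7 18.3 (24.7) and Ndufs3 50.1 CPM (71.4). Ifi27 at 29.1 CPM (54.1) and Ecm1 at 30.9 CPM (52.2) completed the list.

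Among the other libraries, NZO 6 stood apart for Cps1 at 5648 CPM and Cela1 at 7.01 CPM, both high, and for Lgals3bp at 58.7 CPM, low. PWK 4 was high for Saa1 at 413 CPM, Orm2 at 40.8 CPM and Hba-a2 at 43.5 CPM. PWK 9 was low for Ifit3 at 0.815 CPM, Lgals3bp at 203 CPM and Col3a1 at 11.2 CPM and high for Oat at 562 CPM. PWK 3 was high for Fabp2 at 105 CPM and PWK 2 low for Sult5a1 at 66.5 CPM.

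The slope of log2 CPM on log2 Xist differed between NZO and PWK for 7 named genes by the interaction term. The NZO minus PWK difference in slope was 0.99 for Sult2a2, -1.05 for Sult3a1, 0.55 for Mup20, 0.51 for Mup21, 0.32 for Per2, -0.19 for Acot2 and -0.20 for Cdh1. Acot2 was level in NZO (slope 0.01) and climbed with Xist in PWK (0.20), and Cdh1 had slopes of -0.11 and 0.09.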

How the results depend on the processing

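Leaving out 1 library at a time gave 3887 to 4367 genes higher in NZO, 3549 to 3933 lower, 1686 to 2044 at least 2-fold higher and 1137 to 1239 at least 2-fold lower, and the slope test gave 457 genes without NZO 8. NZO 8 gave the lowest higher count. Within the low range of title numbers, with 4 NZO and 5 PWK libraries, genes higher in NZO numbered 2264, genes lower 1996 and genes at least 2-fold higher 1190. Requiring a mean of at least 1 CPM, which tests fewer genes, gave 1136 genes at least 2-fold higher and 669 lower. limma on the deposited variance-stabilised values, whose scale compresses low genes, gave 776 and 499. Genes present in 1 strain numbered 41 in NZO and 35 in PWK at 0.5 CPM against 0.2 CPM, and 1 and 2 at 2 CPM against 0.05 CPM. Same-numbered libraries did not deviate together: of 7 pairs 3 correlated above 0.1 (range -0.277 to 0.244), and 1 library matched its own number best. With a replicate block genes at least 2-fold higher numbered 1261 over libraries that share a number and 1236 over all libraries of both strains, where NZO 8 and PWK 9 have no partner.

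Of the named genes, Cyp2b13 turned to -0.58 within the low range of title numbers. Igkc turned to -0.38 without NZO 8, -0.40 and -0.40 under the replicate block, -0.34 with Xist as a covariate and without NZO 8, -0.37 with the pair of strains alone and without NZO 8, and -0.36 within the high range. Ighm gave -0.41, -0.38, -0.38, -0.40, -0.40 and -0.54 in the same order. Leaving out 1 library at a time gave -0.38 to 1.87 for Igkc and -0.41 to 1.68 for Ighm, lowest without NZO 8 and highest without PWK 6. All 6 settings leave out NZO 8 or give it no weight. With the NZO and PWK libraries alone in the fit, 6 named genes lost the call and 1 gained it. Over all named genes and alternatives, 4742 values kept their direction and side of the threshold, 186 lost the call, 12 gained it and 13 turned. The cause was not tested. The title ranges, and the fits joining 2 choices, were chosen after seeing the data. The median log2 fold change of all genes was 0.02 in the main fit and 0.02 with RLE scaling in edgeR in place of TMM. It was 0.01 without mitochondrial genes and the 18S row.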

Other observations

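Genes known to differ between mouse strains gave 7 higher and 6 lower of 20, against 27.2% and 23.0% of all genes, and 8 and 6 without NZO 8. Ctse, an endosomal protease, averaged 28.6 ± 12.9 CPM in NZO and 1.84 ± 0.69 CPM in PWK (log2 fold change 3.95, adjusted p = 6.07e-13). Abcb1a, a drug exporter, was higher at 1.65, and Alad, of heme synthesis, at 1.15 (adjusted p = 0.0162 and 1.04e-08). Glyoxalase (Glo1) was lower at -0.46 (adjusted p = 0.0258, and 0.0526 without NZO 8). Nnt, the mitochondrial transhydrogenase, was read in every library of both strains, at 77.1 to 169 CPM in NZO and 80.7 to 142 CPM in PWK, and was not called (0.21).

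Bile duct genes gave 3 higher and 1 lower of 11, none by 2-fold, against 27.2% higher and 23.0% lower over all genes. Pkhd1, a protein of the primary cilium, was higher at 0.56 (adjusted p = 0.0138). Epcam (0.40), Krt7 (0.14) and Krt19 (0.24) were not called.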
